A study of Mus musculus with 6 samples.

Results

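The 8 genes described here encode the transcription factors of the integrated stress response and their feedback regulators: Atf4, its relative Atf5, the downstream factors Ddit3 and Atf3, the partners Cebpb and Cebpg, and the feedback regulators Trib3 and Nupr1. They were chosen by symbol, among 55471 genes in the count table of mouse cortical neurons depleted of the mitochondrial fusion protein Opa1. The symbols matched 9 rows of the table, because Ddit3 is also the name of a short second row that held no count in any library and is not used further. The remaining 8 rows had counts, and all 8 passed the low-count filter that left 16562 genes for testing.

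The neurons were a primary culture from cortices of CD1 mouse embryos (E14.5 to E15), kept for 11 days. All cultures received the mitotic inhibitor cytosine arabinoside (Ara-C) at 2 uM and a lentivirus on day 6, and RNA was taken on day 11. The 3 libraries of the control group carried a control short hairpin RNA (shControl; genotype labelled WT) and the 3 of the knockdown group a short hairpin RNA against Opa1 (shOpa1; genotype labelled Opa1 knock-down). Libraries were numbered 1 to 3 in each group as biological replicates; neither the hairpin sequences nor the animals behind each number are given in the sources used here.

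In the integrated stress response, kinases that sense different stresses phosphorylate the translation factor eIF2. General translation then slows, while the mRNA of the bZIP transcription factor ATF4 is translated more, because short reading frames upstream of its coding sequence stop holding ribosomes back. ATF4 pairs with C/EBP proteins and binds the C/EBP-ATF response element in genes for amino acid supply, tRNA charging and further stress factors. In neurons, as in other cells, mitochondrial faults are among the stresses that reach eIF2. RNA sequencing measures the mRNA of these factors and not their translation or activity.

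Opa1 itself was at 202, 205 and 202 CPM (counts scaled by library size) in shControl and at 10.2, 8.64 and 8.50 CPM in shOpa1, a 22.3-fold fall in the group means. Library totals ran from 24676709 to 28253400 counts in shControl and from 29476268 to 32961580 in shOpa1. Of the tested genes, 18.9% were called higher and 20.0% lower in shOpa1 at an adjusted p of 0.05 (edgeR quasi-likelihood test, Benjamini-Hochberg), and 3.14% were called higher with at least a 2-fold change. With the replicate number as a block these shares were 28.8% higher and 30.7% lower. All 3 shOpa1 libraries lay above all 3 shControl libraries for 25.8% of the tested genes and below them for 26.0%. The libraries of replicate 3 differed from the rest in both groups. Their deviations from the group means correlated with those of libraries numbered 1 and 2 in the other group at -0.532 to -0.491, and with each other at 0.714. Libraries 1 and 2 correlated across groups at 0.116 and 0.154, and with their own number at 0.595 and 0.608. Deviations cancel within a group of 3, which by itself lowers the values between unlike numbers. Results on the factors are also given without the pair numbered 3.

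Of the 8 factors, 7 rose and 1, Cebpg, fell, with or without the replicate block. Of the 7 that rose, 6 rose at least 2-fold. In none of the 8 did the shOpa1 and shControl libraries overlap. The median log2 fold change was 1.66 over the 8 factors and -0.01 over all tested genes. With pairs 1 and 2 alone the median was 1.65 and all 8 calls were made in the same directions, with log2 fold changes of 3.50 for Nupr1, 2.63 for Atf3, 2.62 for Trib3, 1.70 for Cebpb, 1.596 for Ddit3, 1.35 for Atf5, 0.95 for Atf4 and -0.52 for Cebpg. Nupr1 had the steepest rise among them and Atf4, by far the most abundant, the smallest. Nothing beyond the word biological says that the replicates are separate cultures, so p-values here may cover technical spread alone.

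**Figure D1:**
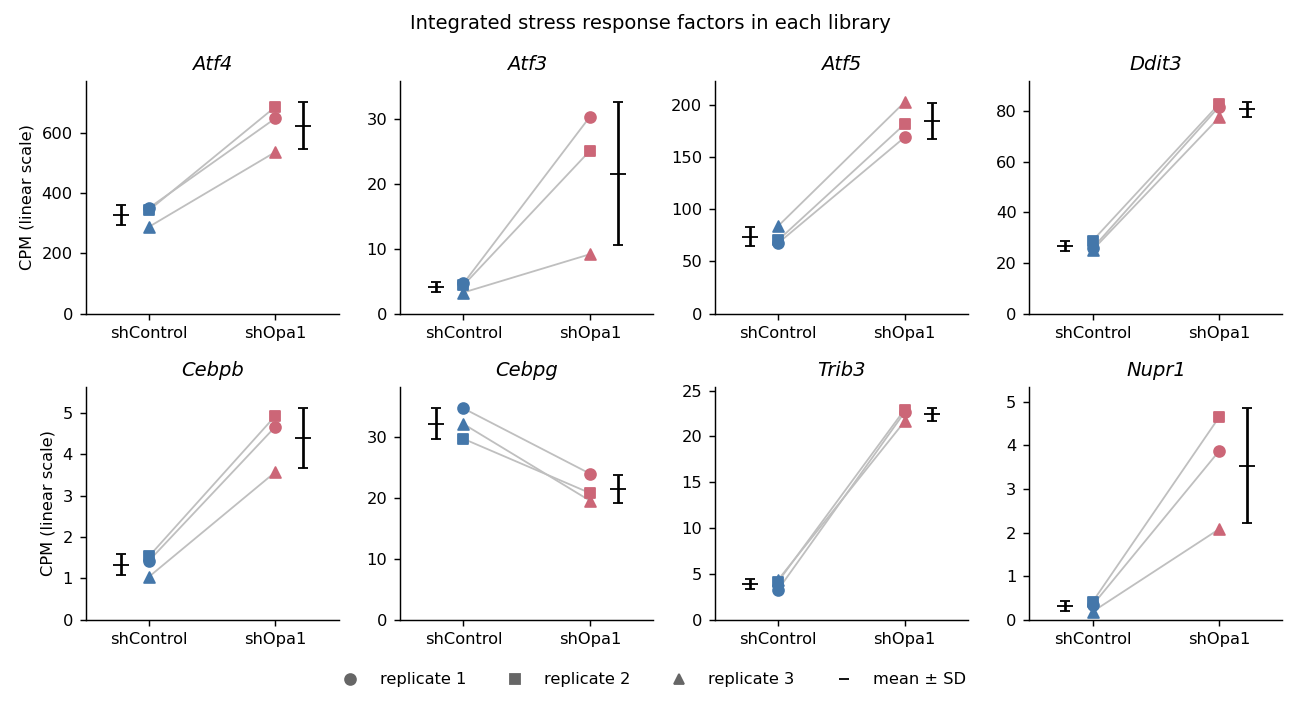
Each panel shows 1 gene in CPM on a linear axis from 0, with shControl at the left and shOpa1 at the right. Points are libraries, grey lines join libraries with the same replicate number, and bars beside them are the mean ± SD of 3 libraries. All lines rise except those of Cebpg, and the shOpa1 library of replicate 3 lies apart for Atf3, at 9.17 CPM against 25.1 and 30.4 CPM.

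Atf4 (ENSMUSG00000042406, chromosome 15 from 80255184 to 80257541, plus strand, GRCm38), the central factor, was at 351, 343 and 288 CPM in shControl and at 649, 687 and 537 CPM in shOpa1. The lowest shOpa1 library lay well above the highest shControl library. The means were 327 ± 34.1 and 625 ± 78.1 CPM (SD, n = 3), a 1.91-fold difference. On the log2 scale this was a change of 0.93 with a standard error (SE) of 0.11 (edgeR, adjusted p = 0.000948). Because Atf4 was counted 7772 times or more in every library, counting error is small beside the spread between libraries. Replicate 3 was the lowest of its group in both groups, and the ratios within the numbered pairs were 1.85, 2.00 and 1.86.

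Atf5 (ENSMUSG00000038539, chromosome 7 from 44812256 to 44816658, minus strand) encodes a relative of ATF4 whose mRNA is also translated preferentially when eIF2 is phosphorylated, and which drives mitochondrial chaperone genes in mammalian cells. It was at 67.4, 70.1 and 83.7 CPM in shControl and at 169, 181 and 202 CPM in shOpa1. Here replicate 3 was the highest of its group in both groups, the reverse of Atf4. The log2 fold change was 1.32 with an SE of 0.11 (edgeR, adjusted p = 0.000164), and the pair ratios were 2.51, 2.59 and 2.42.

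Ddit3 (ENSMUSG00000025408, chromosome 10 from 127290774 to 127296288, plus strand) encodes CHOP, a C/EBP-type factor that ATF4 induces and that activates the eIF2 phosphatase gene Ppp1r15a and several death genes. Its shControl libraries held 25.8, 28.8 and 25.1 CPM and its shOpa1 libraries 81.8, 82.8 and 77.5 CPM. Its libraries lay close together: the coefficient of variation was 7.34% in shControl and 3.51% in shOpa1, against a 3.03-fold difference in the means. On the log2 scale it rose by 1.601 with an SE of 0.08, the smallest SE of the 8 (edgeR, adjusted p = 2.90e-05). Exons of other rows, among them Mars on the opposite strand and the second Ddit3 row on the same strand, cover 10.9% of its exon length. Mars itself rose by 0.51 on the log2 scale.

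Atf3 (ENSMUSG00000026628, chromosome 1 from 191170296 to 191218039, minus strand) encodes a bZIP factor that many stresses, nerve injury and neuronal activity induce. It was at 4.65, 4.37 and 3.26 CPM in shControl and at 30.4, 25.1 and 9.17 CPM in shOpa1. All shOpa1 libraries were higher, but replicate 3 rose much less than the other two. The coefficient of variation in shOpa1 was 51.2%, where counting alone would give 3.78%. The log2 fold change was 2.40 with an SE of 0.45, the largest SE of the 8 (edgeR, adjusted p = 0.00722). Without the filter on low counts the adjusted p was 0.0554 at a log2 fold change of 2.40.

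The C/EBP partners moved in opposite directions. Cebpb (ENSMUSG00000056501, chromosome 2 from 167688915 to 167690418, plus strand), an activating C/EBP factor that can pair with ATF4, was at 1.43, 1.53 and 1.04 CPM in shControl and at 4.67, 4.94 and 3.58 CPM in shOpa1. These values rest on 28 to 41 counts in shControl and 117 to 169 in shOpa1, and no library of one group reached the other. Cebpb rose by 1.72 on the log2 scale with an SE of 0.22 (edgeR, adjusted p = 0.00114). An exon of Tmem189 on the opposite strand covers 20.7% of its exon length, so its counts are uncertain; Tmem189 itself rose by 0.34 on the log2 scale.

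Cebpg (ENSMUSG00000056216, chromosome 7 from 35046422 to 35056573, minus strand) encodes a short C/EBP protein without a strong activation domain of its own, which forms heterodimers with ATF4 and other C/EBP factors. It was at 34.8, 29.8 and 32.2 CPM in shControl and at 24.0, 20.9 and 19.6 CPM in shOpa1. The highest shOpa1 library lay below the lowest shControl library. The log2 fold change was -0.59 with an SE of 0.10 (edgeR, adjusted p = 0.00408), and the 3 pair ratios were 0.691, 0.700 and 0.608.

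Cebpg is also the only one of the 8 factors whose 3' UTR holds the 7-base sequence GAAACTA, which was picked from these same fold changes as one whose carriers are lower, so its presence here is a description and no test. The longest annotated 3' UTR (GENCODE M21) holds 2 copies in Cebpg and 0 in the other 7 factors. Of the 2 Cebpg transcripts with an annotated 3' UTR, 1 holds the sequence and the other does not. Both Cebpg sites are shown 5' to 3' with the sequence in capitals, the first at chr7:35048107-35048113 and the second at chr7:35047768-35047774 (GRCm38, minus strand).
Cebpg site 1: taaagttggggGAAACTAggtttggggaat
Cebpg site 2: tctcaatttatGAAACTAgaaacatgtaca
Of 13851 tested genes with a searched 3' UTR, 9.63% carried the sequence. The median log2 fold change was -0.42 over the 1334 carriers, -0.72 over the 169 with at least 2 copies and 0.02 over the genes without it. The Cebpg UTR is 3962 bases long, against 81 to 1186 bases for the other 7 factors, and carriers have longer UTRs in general (median 2801 against 1123 bases). The part of the sequence or of UTR length in the fall of Cebpg was not tested.

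The feedback regulators showed the steepest rises over all 3 pairs, although without pair 3 the values of Atf3 and Trib3 were nearly equal. Trib3 (ENSMUSG00000032715, chromosome 2 from 152337422 to 152344032, minus strand) encodes a pseudokinase that ATF4 and CHOP induce and that binds ATF4 and restrains it. It was at 3.27, 4.15 and 4.34 CPM in shControl and at 22.6, 22.9 and 21.6 CPM in shOpa1. The shOpa1 libraries were nearly equal, with a coefficient of variation of 3.00%. Trib3 rose by 2.51 on the log2 scale with an SE of 0.13 (edgeR, adjusted p = 3.46e-05).

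Nupr1 (ENSMUSG00000030717, chromosome 7 from 126623249 to 126630861, minus strand) encodes a small, largely unstructured nuclear protein induced by many stresses. It was counted 8, 11 and 5 times in shControl and 120, 159 and 68 times in shOpa1, that is at 0.335, 0.411 and 0.185 CPM and at 3.87, 4.64 and 2.08 CPM. It was nearly silent in shControl and well detected in every shOpa1 library. The log2 fold change was 3.49 with an SE of 0.42 (edgeR, adjusted p = 0.000841), rank 7 from the top among the tested genes, and it carries the counting error of those few shControl reads.

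The paralogues of the feedback regulators, Trib1, Trib2 and Nupr1l, were not called higher. Trib2 changed by -0.45 (log2), from 115 ± 19.4 to 84.0 ± 5.30 CPM (SD, n = 3; edgeR adjusted p = 0.0221, from the fit over all genes). Trib1 was not called without the replicate block, at a log2 fold change of -0.22 with an SE of 0.39, and was called lower with it (edgeR, adjusted p = 0.0249). For Nupr1l, not called in either fit, the log2 fold change was 0.14 with an SE of 0.29 at 0.562 CPM in shControl.

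A promoter feature was found in Atf3, Trib3 and Nupr1 and not in the other 5 factors within the same window. Of those 5, Atf5, Ddit3 and Cebpb also rose at least 2-fold, and the part of this feature in any rise was not tested. Promoters were taken from RefSeq (GRCm38.p6) as the 250 bases before and 50 bases after an annotated start, and all 8 factors matched, Atf5 with 2 starts. The core of the C/EBP-ATF response element, TGATGNAA, was searched on both strands. It occurs once in each of the Atf3, Trib3 and Nupr1 windows, on the strand opposite to the gene, so the capitals below read as its reverse complement. All 3 are shown because these genes rose most, 5' to 3' along the gene, with the matched bases in capitals. Atf3 is at chr1:191183284-191183583, Trib3 at chr2:152344011-152344310 and Nupr1 at chr7:126625421-126625720, all on the minus strand.
Atf3: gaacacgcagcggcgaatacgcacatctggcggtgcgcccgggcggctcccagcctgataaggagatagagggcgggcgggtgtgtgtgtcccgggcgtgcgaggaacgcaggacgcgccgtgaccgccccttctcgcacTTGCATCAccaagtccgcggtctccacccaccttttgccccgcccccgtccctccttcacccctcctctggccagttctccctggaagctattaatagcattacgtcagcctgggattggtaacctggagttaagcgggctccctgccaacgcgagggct
Trib3: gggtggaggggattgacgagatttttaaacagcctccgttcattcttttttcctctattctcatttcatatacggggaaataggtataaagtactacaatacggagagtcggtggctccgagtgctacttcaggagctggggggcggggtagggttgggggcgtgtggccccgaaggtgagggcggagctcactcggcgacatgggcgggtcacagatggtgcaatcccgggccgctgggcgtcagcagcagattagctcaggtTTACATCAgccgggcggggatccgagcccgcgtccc
Nupr1: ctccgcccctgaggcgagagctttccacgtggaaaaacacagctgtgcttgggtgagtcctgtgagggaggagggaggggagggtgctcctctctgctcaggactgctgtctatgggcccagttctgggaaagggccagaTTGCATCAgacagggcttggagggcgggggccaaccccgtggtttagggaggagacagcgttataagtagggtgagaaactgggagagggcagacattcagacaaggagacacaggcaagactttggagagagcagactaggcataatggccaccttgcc
In Atf3 and Nupr1 the match has the same 8 bases, TGATGCAA, and lies at the same distance, from 110 to 103 bases before the start. In Trib3 it reads TGATGTAA and lies from 15 to 22 bases after the start. The core was present in 4.51% of 26994 genes with a promoter window and in 3.97% of the windows. Among the ATF4 and CHOP target list described further on, 13 of 37 matched genes held it, and among other bZIP genes 1 of 34. The cyclic AMP response element TGACGTCA was in the windows of 0 of the 8 factors and 2.03% of all genes, and the endoplasmic reticulum stress response element (CCAAT, a gap of any 9 bases, then CCACG) in 0 of 8 and 0.137%. These are matches of letters in a window, and the counted gene models of Atf3 and Nupr1 extend upstream of the starts used here. The counted model of Trib3 ends at 152344032, so its match, at 152344039 to 152344046, lies just upstream of that model although it is downstream of the RefSeq start.

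To compare levels between genes, counts were divided by exon length as well (RPKM, the CPM per kilobase of exon). This length covers every annotated exon of a gene, such as 5621 bases for Cebpg and 2514 for Nupr1. Which transcripts were expressed was not tested, so levels and ratios between genes depend on the annotation. In shControl the order was Atf4 at 139 ± 14.48, Atf5 at 37.0 ± 4.39, Ddit3 at 15.5 ± 1.14, Cebpg at 5.74 ± 0.446, Atf3 at 1.90 ± 0.341, Trib3 at 1.84 ± 0.268, Cebpb at 0.886 ± 0.173 and Nupr1 at 0.124 ± 0.0457 RPKM (SD, n = 3). Libraries of neighbours in this order did not overlap except for Atf3 and Trib3. In shOpa1 the order of the first 3 was the same, at 265 ± 33.1, 92.4 ± 8.54 and 47.1 ± 1.65 RPKM. Trib3 at 10.5 ± 0.316 RPKM and Atf3 at 10.01 ± 5.13 RPKM stood above Cebpg at 3.82 ± 0.408 RPKM, though Atf3 replicate 3, at 4.26 RPKM, lay within the range of Cebpg and below Trib3, and the other Atf3 libraries, at 14.1 and 11.7 RPKM, lay above every Trib3 library. Cebpb at 2.92 ± 0.479 RPKM and Nupr1 at 1.40 ± 0.523 RPKM followed.

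The balance between partners shifted with these changes. Cebpg stood at 6.53, 5.20 and 8.30 times the Cebpb level per length in shControl and at 1.38, 1.13 and 1.47 times in shOpa1. The level of Cebpg relative to Ddit3 went from 0.411, 0.315 and 0.391 to 0.0896, 0.0767 and 0.0771. Atf4 stood at 24.0, 27.5 and 21.3 times the Cebpg level in shControl and at 64.4, 78.6 and 65.4 times in shOpa1. In each of these ratios the groups did not overlap. This follows from the single genes, as Cebpg fell and the other gene of each ratio rose, both without overlap. Among the summed RPKM of the 6 bZIP members and 46 other bZIP genes, the members took 31.1, 30.6 and 29.98% in shControl and 44.8, 45.7 and 47.5% in shOpa1. Atf4 alone took 21.2 ± 1.43% and 28.8 ± 0.739% (SD, n = 3). The sum over the other bZIP genes was 454 ± 15.6 and 497 ± 62.2 RPKM, with overlapping libraries.

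**Figure D2:**
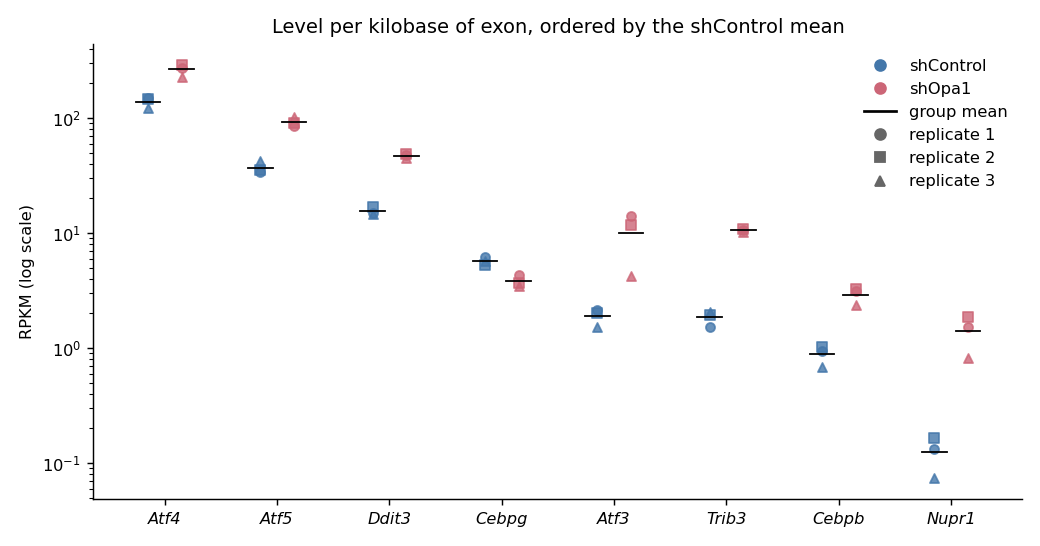
Level per kilobase of exon for each factor on a log axis (RPKM), ordered by the shControl mean, with shControl in blue and shOpa1 in red; points are libraries and black lines are group means. Atf4 leads in both groups at 139 and 265 RPKM, and Cebpg is the only factor whose shOpa1 libraries lie below its shControl libraries.

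Within numbered pairs, the highest ratio was at most 1.39 times the lowest for 7 of the 8 factors, and 2.32 times for Atf3. For Nupr1, replicate 3 was proportionally about as far below the other replicates in shControl as in shOpa1. Its pair ratios were therefore close, at 11.53, 11.3 and 11.2. Counting intervals on these ratios are wide, from 4.58 to 35.6 in pair 3 (95%, exact binomial). The Cebpb ratio was 3.28, 3.22 and 3.44, and the Ddit3 ratio 3.17, 2.87 and 3.08. The Trib3 ratio was 6.92, 5.53 and 4.99. For Atf3 the ratios were 6.53, 5.75 and 2.81. The counting interval of pair 3 (2.21 to 3.61) lay below those of pair 1 (5.36 to 8.02) and pair 2 (4.74 to 7.04). With 1 library per group in a pair, this difference between pairs has no replicate check.

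The bZIP genes Fosb and Fos, induced by neuronal activity, had smaller ratios in pair 3 as well. Fosb was at 3.23, 2.77 and 5.15 CPM in shControl and at 24.5, 19.9 and 10.1 CPM in shOpa1, ratios of 7.59, 7.21 and 1.95. Fos was at 57.1, 44.3 and 39.01 CPM in shControl and at 130, 118 and 35.9 CPM in shOpa1, ratios of 2.28, 2.67 and 0.920. Fosb was called higher, with a log2 fold change of 2.29 and an SE of 0.39 (edgeR, adjusted p = 0.00487), and Fos was not (log2 fold change 1.02, SE 0.46). A smaller ratio in pair 3 was not particular to Fosb and Fos among the bZIP genes. Creb3l2, not called, had log2 differences of 0.36, 0.18 and -0.67 in pairs 1 to 3. Crebl2 went the other way, at 0.45, 0.51 and 0.65. Fos and Creb3l2 were singled out after their values were seen. Whether Atf3, Fosb and Fos share a source of variation between cultures was not tested.

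**Figure D3:**
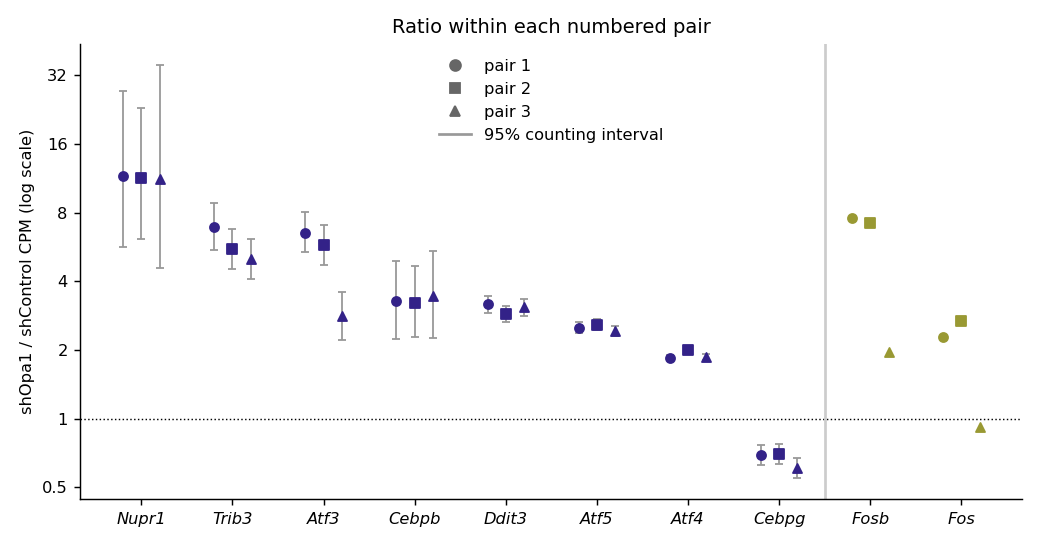
Ratio of shOpa1 to shControl CPM within each replicate number, on a log axis, for the 8 factors and, right of the grey line, Fosb and Fos; bars on the factors are 95% intervals for counting error only. The ratios of a gene lie close together except for Atf3, Fosb and Fos, where pair 3 is lower.

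The other bZIP transcription factors were called about as often as genes in general. Of 46 listed, 38 were tested, 7 rose and 7 fell, shares of 18.4% in each direction beside 18.9 and 20.0% of all tested genes, and the median log2 fold change was -0.01. Besides Fosb, the members that rose were Jdp2, a repressor that binds the same sites as ATF3 and Jun, by 0.99, Bach1, a haem-regulated repressor, by 0.65, Crebl2 by 0.55, Creb3l1 by 0.49, the small Maf protein gene Mafg by 0.49, and Atf2 by 0.26 on the log2 scale. Those that fell were Maf (-1.16), Nfe2l3 (-1.11), Atf7 (-0.86), Dbp (-0.82), Xbp1 (-0.66), Bach2 (-0.30) and Tef (-0.23). Xbp1, the factor of another arm of the endoplasmic reticulum stress response, went from 99.7 ± 3.29 to 63.1 ± 9.02 CPM (SD, n = 3). Of the lower members only Bach2 carried GAAACTA in its 3' UTR. The count of lower members was 4 without shControl replicate 1 and also 4 without shControl replicate 2.

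Upstream of ATF4, the genes of the eIF2 kinases themselves were not called without the replicate block. The log2 fold changes were 0.22 for Eif2ak3 (PERK, the endoplasmic reticulum kinase), -0.11 for Eif2ak1 (HRI, which relays mitochondrial stress), -0.06 for Eif2ak4 (GCN2, the amino acid sensor) and 0.08 for Eif2ak2 (PKR), with SEs of 0.11, 0.06, 0.08 and 0.21. The mitochondrial relay genes Oma1 and Dele1 were not called either, at -0.09 and -0.13 with SEs of 0.19 and 0.08. With the block Eif2ak3 was called higher and Dele1 lower (edgeR, adjusted p = 0.0444 for each). These 6 genes were named for their role, after their values were seen. Of the 18 genes of the list, 6 rose and 0 fell (edgeR), beside 18.9% and 20.0% of all tested genes; 2 were lower at an unadjusted p under 0.05, and DESeq2 and limma-voom also called 0 lower. The steepest rises were those of Ppp1r15a, which encodes the stress-induced eIF2 phosphatase subunit GADD34, from 49.1 ± 9.84 to 152 ± 21.1 CPM, and of Impact, an inhibitor of GCN2 activation, from 130 ± 4.43 to 374 ± 10.2 CPM (SD, n = 3). Ppp1r15a is also on the list of ATF4 and CHOP targets below and is counted in both lists. Ppp1r15b, the constitutive phosphatase subunit, rose by 0.45, and the eIF2 and eIF2B subunit genes Eif2s3x, Eif2s2 and Eif2b1 by 0.47, 0.36 and 0.36 on the log2 scale. The block gave 9 higher and 3 lower, beside 28.8% and 30.7% of all tested genes, and without shControl replicate 3 the number that fell was 2.

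Downstream, 41 of 49 tested ATF4 and CHOP targets rose and 2 fell, 83.7% and 4.08% beside 18.9% and 20.0% of all tested genes, with a median log2 fold change of 0.99. The list was chosen knowing earlier results of these data and is no independent evidence of direction. The smallest p-values belonged to Mthfd2, a mitochondrial folate enzyme, at 2.35, Psat1 of serine synthesis at 1.74, Chac1, which degrades glutathione, at 1.96, the cationic amino acid transporter Slc7a3 at 1.40, Aldh18a1 of proline synthesis at 1.15 and Shmt2, the mitochondrial serine hydroxymethyltransferase, at 1.85. Ddit4, an mTOR inhibitor that ATF4 can induce, changed by -0.99, from 66.2 ± 2.08 to 33.4 ± 0.998 CPM. Ero1l, an oxidase of the endoplasmic reticulum described as a CHOP target and a carrier of GAAACTA, fell by 0.78, from 24.6 ± 2.24 to 14.4 ± 1.23 CPM (SD, n = 3). Of the 41 targets that rose, 2, Slc38a2 and Bcl2l11, carry the same sequence. Of the 12 tested members whose promoter window holds TGATGNAA, 8 rose and 4 were not called (Pycr1, Slc1a4, Slc7a11 and Vldlr, at -0.05, -0.05, -0.05 and -0.17 on the log2 scale); with the replicate block Vldlr was called lower (edgeR, adjusted p = 0.00703).

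Few of the chaperone and degradation genes that ATF6 and XBP1 control in the endoplasmic reticulum were called, at shares not far from those of all tested genes. The difference was not tested. Of 18 tested, 2 rose and 3 fell, 11.1% and 16.7% beside 18.9% and 20.0% of all tested genes, with a median log2 fold change of 0.01. Hspa5, the chaperone BiP, rose by 0.53, from 448 ± 35.8 to 645 ± 91.9 CPM, and its co-factor Hyou1 by 0.37. Dnajb9, Sel1l and Ssr1 fell by 1.30, 1.22 and 0.37, and all 3 carried GAAACTA, against 0 of the 15 other searched genes of this list. That sequence was picked from these same fold changes, so its carriage in this and the other lists is a description and no test. Uncalled genes carried it too: 3 of 12 searched in the eIF2 list, 2 of 6 in the target list and 1 of 24 among other bZIP genes. The endoplasmic reticulum stress response element was in the promoter window of 7 of 16 matched genes. Without shOpa1 replicate 3 the number that rose was 5, and the block gave 5 in each direction, where it called 28.8% of all tested genes higher and 30.7% lower.

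**Figure D4:**
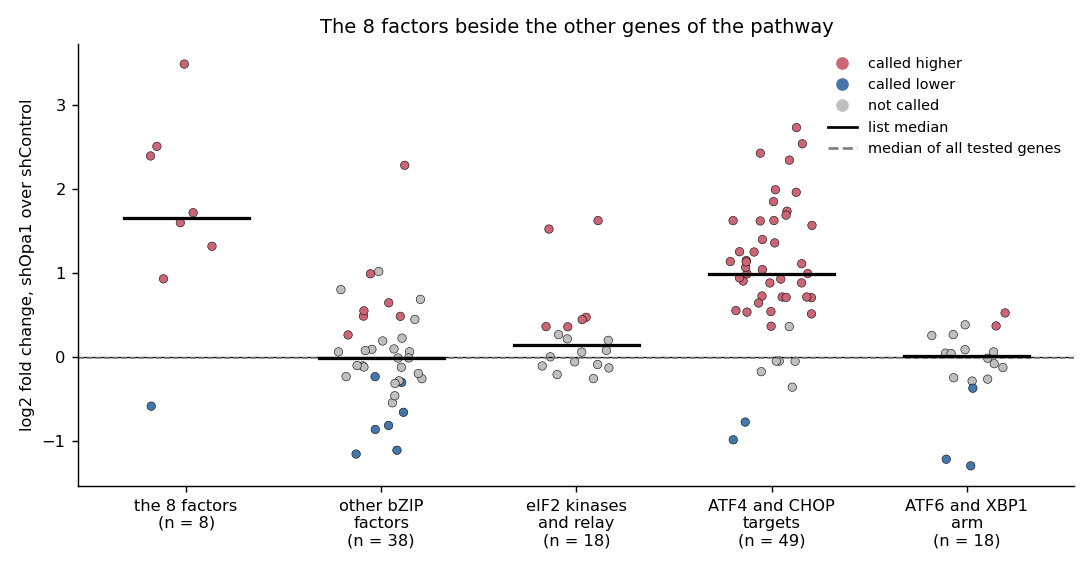
Log2 fold change of shOpa1 over shControl for the 8 factors and 4 lists of related genes; each point is a gene, coloured by its edgeR call at an adjusted p of 0.05, black bars are list medians and the dashed line is the median of all tested genes. Medians are 1.66 for the 8 factors and 0.99 for the targets, against -0.01, 0.14 and 0.01 for the other bZIP genes, the eIF2 genes and the ATF6 and XBP1 arm.

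Genes whose profile over the 6 libraries was closest to that of a factor were sought among 12042 genes. The measure was the root mean square difference of log2(CPM + 0.5) values centred on each gene's mean. Nearest to Atf4 were Mrpl47, a mitochondrial ribosomal protein gene, and the cell cycle phosphatase gene Cdc25a, at differences of 0.0556 and 0.0572. Nearest to Ddit3 were Slc2a1, the glucose transporter GLUT1, at 0.0266 and Taf7, a subunit of the general transcription factor TFIID, at 0.0756. For Nupr1 they were the collagen receptor gene Ddr2 at 0.147 and Cth, the enzyme that makes cysteine, at 0.199, and for Cebpg the peptidase gene Tpp2 at 0.0456 and Pfkfb3, a regulator of glycolysis, at 0.0480. At the low shControl level of Nupr1 the added 0.5 CPM shrinks its pair differences to 2.39, 2.50 and 1.91 on the log2 scale. The edgeR log2 fold changes were 3.49 for Nupr1, 2.30 for Ddr2 and 2.74 for Cth, so the likeness depends on that addition. Slc2a1 followed Ddit3 through all libraries, at 6.92, 7.47 and 6.79 CPM in shControl and 22.1, 22.2 and 20.6 CPM in shOpa1.

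The authors' deposited table gives log2 fold changes of 0.94 for Atf4, 2.28 for Atf3, 1.33 for Atf5, 1.61 for Ddit3, 1.74 for Cebpb, -0.58 for Cebpg, 2.52 for Trib3 and 3.51 for Nupr1. In that authors' deposited table all 8 have an adjusted p below 0.05, the largest being 5.84e-07 for Cebpg. The name of the deposited table holds the word batch, so its model may differ from the main fit here. For Atf4 its SE was 0.053, against 0.13 in the DESeq2 fit without a batch.

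Markers of cell types moved beside these factors, and in such bulk samples fewer cells of a type and less RNA per cell cannot be told apart. Of 8 neuron markers 5 fell, where 20.0% of all tested genes did, and the block called all 8 lower, where it called 30.7% of all tested genes lower. Their summed level ran from 6153 to 6602 CPM in shControl and from 3859 to 4325 CPM in shOpa1, so the cultures expressed the defining genes of neurons in both groups. Astrocyte markers summed to 24.5 to 88.4 CPM in shControl and 11.7 to 34.2 CPM in shOpa1, with 1 of 6 higher and 2 lower (5 lower with the block), and replicate 3 was the highest of its group in both groups. Interneuron markers summed to 1828 to 1892 and 1488 to 1727 CPM (1 of 6 higher, 3 lower, and 5 lower with the block). Oligodendrocyte lineage markers summed to 45.9 to 72.2 and 37.4 to 52.3 CPM (2 of 6 tested lower, and 3 with the block). Microglia markers summed to 5.49 to 7.92 and 3.27 to 4.71 CPM, with 5 of 6 too low to test, and endothelial markers to 1.55 to 3.04 and 1.45 to 3.55 CPM. As with astrocyte markers, replicate 3 was the highest of its group in both groups for the neuron, oligodendrocyte lineage and endothelial sums. It was not for the interneuron and microglia sums. No listed marker of any type was at 0 in every library. The part of these differences in the results on the 8 factors was not tested.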

How the data were processed

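The authors deposited raw counts for 6 libraries. Per the file headers they counted read pairs on the Ensembl 99 annotation (GRCm38) using featureCounts 1.6.0, setting no strand option, so reads of overlapping genes on opposite strands cannot be told apart. HISAT2, DESeq2 and mm10 are named in the submitters' processing notes. The authors also deposited log2 fold changes with standard errors, p-values and adjusted p-values, a score (fold change over error) and counts divided by a size factor, a normalised signal; per the file headers these come from 1 comparison.

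Groups came from the sample titles. The test was edgeR 4.0.16 (R 4.3.3; TMM scaling, default low-count filter, robust quasi-likelihood) on all genes, with Benjamini-Hochberg adjustment. SEs are the log2 fold change over the square root of F. CPM and RPKM use TMM-scaled totals. Replicate numbers were taken as pairs, from the data and not the labels: deviations of same-numbered libraries from their group means correlated at 0.595, 0.608 and 0.714. Alternatives were edgeR with the replicate block or replicate 3 as a batch, other scalings, no filter, DESeq2 1.42.0, limma-voom 3.58.1 and omitted libraries. Fits were tested on simulated data with 200 genes changed 2-fold and no replicate effect. There edgeR recovered 115 in this comparison, over 16291 genes, and called 7 unchanged genes. The block fit recovered 110 and called 27, limma-voom 111 and 6, and DESeq2 (16561 genes) 134 and 47. Without a replicate effect the simulation cannot rank the block fit for these data.

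The 8 factors and all lists were chosen with earlier results of these data known. Named genes were Opa1, the 8 factors, up to 6 called list members per direction with the smallest p, and the nearest 2 profiles. Fos, Creb3l2, Atf2, Tef, the eIF2 kinases, Oma1, Dele1, Trib1 and Nupr1l were added after their values were seen. So were Mars, Tmem189, Pycr1, Slc1a4, Slc7a11, Vldlr, Slc38a2 and Bcl2l11. 0 columns lacked a sample. Intervals cover counting error only.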

Additional observations from a re-analysis of the deposited data

How the results depend on the processing

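No call or direction of the 8 factors changed under any of 16 alternative fits, except that Atf3 had an adjusted p of 0.0554 without the low-count filter. The replicate block changed no call among the 8, and 9851 genes were then called in the whole table against 6442. It also gave 3 lower eIF2 genes and 5 higher and 5 lower genes of the ATF6 and XBP1 arm; with replicate 3 as a second batch these counts were 2, 4 and 6. Upper quartile scaling and library totals each gave 4 higher genes of that arm. Library totals alone moved the median of all genes to 0.11 on the log2 scale and that of the 8 factors to 1.78. Pairs 1 and 2 alone gave 2 lower eIF2 genes and 5 higher genes of the arm; with the block added after seeing the data, 10421 genes, 15 higher bZIP genes, 3 lower eIF2 genes and 7 higher and 6 lower of the arm. Leaving out 1 library at a time gave medians of 1.56 to 1.75 for the 8 factors, 4 to 7 lower bZIP genes, 0 to 2 lower eIF2 genes and 2 to 5 higher genes of the arm. The cause of these shifts was not tested. Of 48 pair differences with another pseudocount (0.1 or 2 CPM instead of 0.5), 15, all of Nupr1, Cebpb or Trib3, moved by more than the spread between pairs and 0 reversed; the CPM ratios without a pseudocount were added after seeing the data. Depth limits Nupr1 in shControl (5 to 11 counts) and Cebpb (28 to 41 counts).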
